A study of Homo sapiens with 2 samples.

Results

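The 9 genes of acidic nuclear and nucleolar proteins (NCL, NPM1, NOLC1, PTMA, PTMS, SET, ANP32A, ANP32B and ANP32E) were taken by symbol from a table of 25556 genes. All 9 were listed, and all 9 passed the filter on low values. The members were chosen by their IP and input levels and peaks in these same libraries as well as by the nature of their proteins, so these levels, ratios and peaks are given as a description. The series is an RNA immunoprecipitation (RIP-seq) in Huh-7, an established human hepatocellular carcinoma line that is labelled wild type, with 1 immunoprecipitate (IP) library and 1 input library of untreated cells. RIP-seq sequences the RNA that an antibody brings down with its target protein, and sets it beside the RNA of the starting lysate. The design text gives 10% of the lysate to the input and 90% to the IP and names an antibody against SRSF7, a splicing and mRNA export factor. The treatment label of the IP has SPSF7, and its protocol lists anti-YTHDF2 on poly(A) RNA, YTHDF2 being a reader of the m6A mark, so the precipitated protein is not settled and the libraries are called IP and input as labelled. The cells are a single line, the labels do not say how many cultures entered each library, and no result has a replicate check.

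Most of these proteins are known for long runs of aspartate and glutamate, which let them hold basic partners such as histones. No protein sequence was examined here. Nucleolin (NCL), nucleophosmin (NPM1) and NOLC1 work in the nucleolus on ribosomal and small nucleolar RNA and its proteins. Prothymosin alpha (PTMA) and parathymosin (PTMS) are small disordered proteins that act on linker histones and chromatin. SET and the ANP32 proteins are histone chaperones, and SET and ANP32A are also known as inhibitors of protein phosphatase 2A. All are abundant in proliferating cells, hepatoma lines included.

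The first transcribed bases are shown because they are part of the RNA that an IP can retain, and because a start with C and a run of pyrimidines is typical of mRNAs of the translation machinery. RefSeq (GRCh38.p14) gave 6 starts for 5 of the members described here, and the 30 bases from the start are written 5′ to 3′ with the opening run of C and T in capitals. NOLC1, PTMS and ANP32E had no entry. For NPM1, which has 2 starts, the start with the run is shown. The other NPM1 start, at 171387116, opened with G and had no such run.
ANP32B, chr9:97983341-97983370, plus strand: CTTTTCCCTCCatggtttctctccgctccc
NPM1, chr5:171387849-171387878, plus strand: CTTTCCCTggtgtgattccgtcctgcgcgg
PTMA, chr2:231708525-231708554, plus strand: CCCCCactggctgctctgaaaagccatctt
NCL, chr2:231464455-231464484, minus strand: agtctcgagctctcgctggccttcgggtgt
ANP32A, chr15:68820866-68820895, minus strand: agtgtgcgccgcgggtgctgggggctcgag
ANP32B, NPM1 and PTMA opened with C and at least 4 further C or T, which 4.07% of all RefSeq entries of this kind did. Counted by gene, 7.42% of the 8421 measured genes with an entry had such a start, and 82 of the 547 among them whose mean reached 50 RPKM, as it did in all 5 members shown. The entries of NCL and ANP32A opened with A. All these starts are as annotated by RefSeq and were not measured in these cells. The members with such a start included both a mRNA near its input level (NPM1) and 2 above it (ANP32B and PTMA), as given below.

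Gene-assigned reads numbered 5897293 in the IP and 2782045 in the input. Levels are in RPKM, reads scaled to the length of the merged exons and to all assigned reads of the library, and ratios are IP over input. Intervals are exact 95% intervals that cover counting error only and take reads as independent. Of 8 hepatocyte markers all 8 were measured, from 26.4 RPKM (HNF4A) to 2814 RPKM (AFP) in the input, with a summed level of 5706 RPKM in the IP and 6712 in the input. Their ratios ran from 0.573 (AFP) and 0.607 (TTR) to 1.45 (SERPINA1) and 1.94 (HNF4A). Of 12 markers of other cells, 11 were listed and 8 measured, with summed levels of 607 and 930 RPKM, most of it the beta-globin gene HBB at 467 and 738 RPKM and the myeloid LYZ at 70.2 and 133 RPKM. The mesenchymal COL1A1 was at 0.151 and 0.0798 RPKM, and none of the 11 was at 0 in both libraries. On the log2(RPKM + 1) scale the measured ones ran from -1.07 (CD3E) and -0.91 (LYZ) to 0.12 (CD68) and 0.46 (KRT19). The part of these other RNAs in the values below was not tested. For the level of a marker within a bulk library, few cells with much of a transcript and many cells with little of it cannot be told apart.

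As a group, the 9 mRNAs made up 3.02% of IP reads (exact binomial interval 3.01 to 3.03%) and 1.29% of input reads (1.27 to 1.30%). All 9 were higher in the IP on the deposited scale, by 1.18 to 5.36 times. The median measured gene was higher in the IP too, so this is the usual side on that scale. NPM1, the lowest member, lay above 55.3% of measured genes on the log2(RPKM + 1) scale. On the log2(RPKM + 1) scale 4 of the 9 were at least 2-fold higher and 0 were at least 2-fold lower, against 11.3% and 8.25% of the 14057 measured genes, those whose mean over both libraries reached 1 RPKM. The values of the members led to their choice, so nothing is read from that count. Their median log2 ratio was 0.65, beside 0.14 over all measured genes. All 9 had a mean of at least 50 RPKM, as did 908 of the measured genes. Of these 908, on the same scale, NPM1 lay above 50.6%, ANP32E above 68.4%, PTMA above 89.2% and PTMS above 99.8%. PTMA, at 2.16 times, was the lowest member beyond 2-fold, and SET, at 1.57 times, the highest within it.

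**Figure D1:**
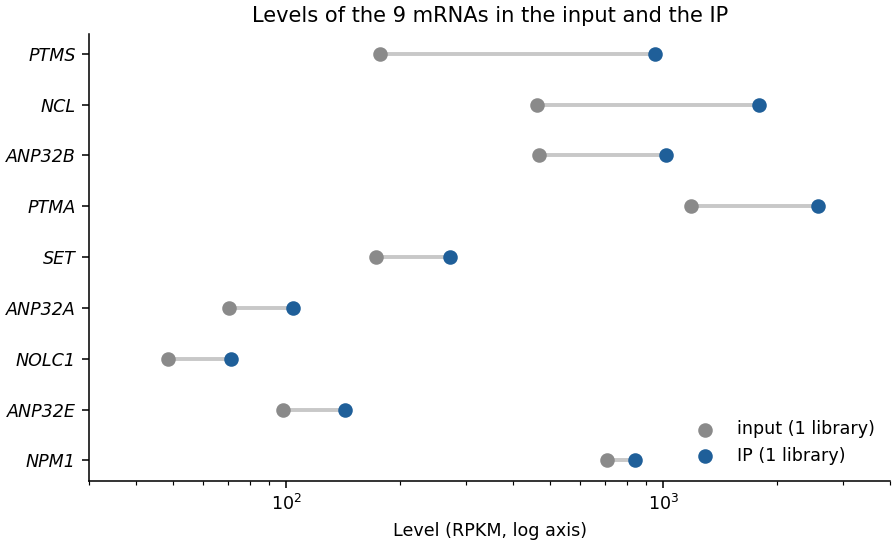
RPKM of each of the 9 mRNAs in the input (grey) and the IP (blue), 1 library each, on a log axis and ordered by ratio. The gap is widest for PTMS (177 and 952 RPKM) and narrowest for NPM1 (711 and 839.5 RPKM).

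The nucleolar members differed most among themselves. NCL, the main RNA-binding protein of the nucleolus, was at 463 RPKM in the input (8789 reads) and 1793 RPKM in the IP (72102 reads). Its ratio was 3.87 (3.79 to 3.96), and on the log2(RPKM + 1) scale NCL lay above 98.0% of measured genes. Ranked by RPKM among protein-coding genes, NCL went from place 36 in the input to place 6 in the IP. NPM1, the nucleolar histone chaperone that also escorts ribosomal particles, was the more abundant of this pair in the input, at 711 RPKM (7569 reads), and the less abundant in the IP, at 839.5 RPKM (18952 reads). Its ratio was 1.18 (1.15 to 1.21). On the log2(RPKM + 1) scale NPM1 lay above 55.3% of measured genes, close to the middle. Its place among protein-coding genes was 21 in the input and 18 in the IP. NCL was therefore enriched 3.28 times as much as NPM1 (exact interval of the ratio of ratios 3.16 to 3.39), a value that no scaling between the libraries changes. NOLC1, a chaperone of small nucleolar ribonucleoproteins, was far less abundant, at 48.5 RPKM in the input and 71.1 RPKM in the IP (536 and 1665 reads), with a ratio of 1.47 (1.33 to 1.62).

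The prothymosins were both higher in the IP, and parathymosin more so. PTMA was the most abundant member in both libraries, at 1186 RPKM in the input (11149 reads) and 2567 RPKM in the IP (51133 reads). It held place 7 among protein-coding genes in the input and place 2 in the IP, with a ratio of 2.16 (2.12 to 2.21). PTMS had a lower level in the input, 177 RPKM (734 reads), and reached 952 RPKM in the IP (8346 reads). Its ratio of 5.36 (4.97 to 5.79) was the highest of the 9 and above that of 99.02% of measured genes, and its place moved from 145 to 16. The ratio of PTMS was 2.48 times that of PTMA (2.29 to 2.68).

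The ANP32 genes and SET, the leucine-rich and NAP-like chaperones, split into ANP32B and the others. ANP32B, a histone chaperone, was at 467 RPKM in the input and 1018 RPKM in the IP (2431 and 11229 reads), a ratio of 2.18 (2.09 to 2.28). ANP32A, its closest relative in the group, was at 70.3 and 104 RPKM (1476 and 4631 reads), a ratio of 1.48 (1.40 to 1.57), and ANP32B exceeded it by 1.47 times (1.37 to 1.58). ANP32E, which strips the histone variant H2A.Z from nucleosomes, was at 98.0 and 143 RPKM (983 and 3043 reads), with a ratio of 1.46 (1.36 to 1.57). SET was at 173 RPKM in the input and 271 RPKM in the IP (2096 and 6965 reads), with a ratio of 1.57 (1.49 to 1.65). Less abundant relatives had few reads: NPM3 had 100 reads in the IP and 52 in the input, a ratio of 0.907 (0.643 to 1.29), and ANP32C, ANP32D and NPM2 had 12, 2 and 8 IP reads and 2, 2 and 4 input reads.

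The members are set here in order of these same ratios, so the steps between them are a description. PTMS exceeded NCL by 1.39 times (1.28 to 1.501) and NCL exceeded ANP32B by 1.78 times (1.69 to 1.87). ANP32B and PTMA were not separable by counting error, with a ratio of ratios of 1.01 (0.959 to 1.06). PTMA exceeded SET by 1.38 times (1.31 to 1.46). SET, ANP32A, NOLC1 and ANP32E then lay in a band in which the outermost pair, SET over ANP32E, differed by 1.07 times (0.983 to 1.17), and NPM1 lay below ANP32E by a ratio of ratios of 1.24 (1.14 to 1.34). Of the 8 neighbouring pairs, 4 had an interval above 1, and the same 4 did with reads halved, as if both mates of each pair had been counted (1.11 to 1.38 for ANP32E over NPM1). The pairs came from sorting by these ratios and the intervals cover counting error only, so nothing is read from that count. Within the summed RPKM of the 9, NCL made up 13.6% in the input and 23.1% in the IP, PTMS 5.23% and 12.3%, NPM1 20.9% and 10.8%, and PTMA 34.9% and 33.1%.

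**Figure D2:**
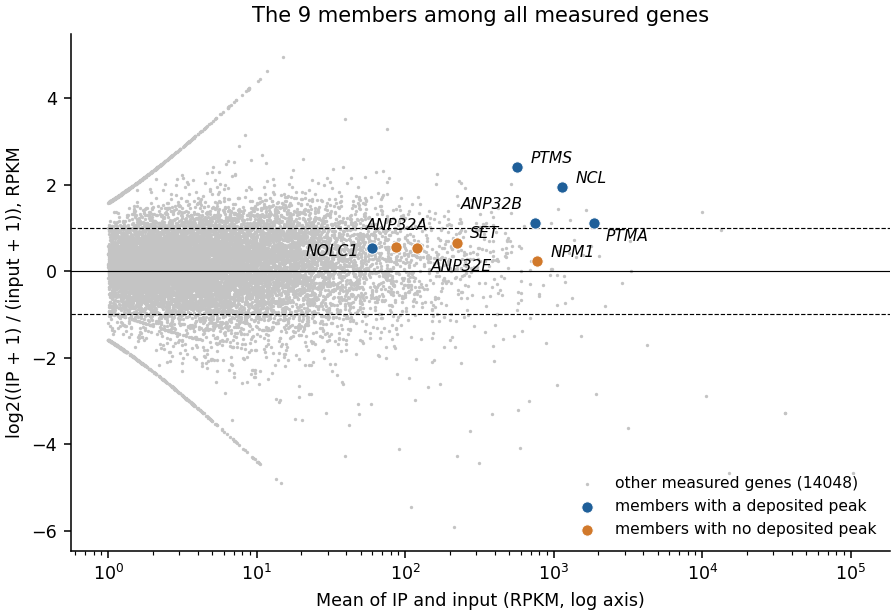
Each point is a measured gene, by its mean level (log axis) and its log2((IP + 1)/(input + 1)); dashed lines mark 2-fold. PTMS and NCL stand at log2 ratios of 2.42 and 1.95, ANP32B and PTMA at 1.12 and 1.11 just beyond the line, and the other 5 members between 0.24 and 0.65.

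How the libraries are set against each other moved these ratios. Protein-coding genes took 69.2% of reads in the input and 90.6% in the IP. Scaled to protein-coding reads, NPM1 was at 0.902 times its input level and the other 8 at 1.12 to 4.10 times, and 2 members (PTMS and NCL) stayed beyond 2-fold. Scaled to equal RPKM sums, all 9 lay between 2.82 and 12.8 times, when the median log2 ratio of all measured genes was 1.21. The sums were 353024 RPKM in the IP and 844211 RPKM in the input. The input sum holds non-coding entries such as RN7SL2 and RN7SL1, with means of 103375 and 86527.5 RPKM and log2 ratios of -4.66 and -5.36. This scaling therefore depends strongly on a few such entries.

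**Figure D3:**
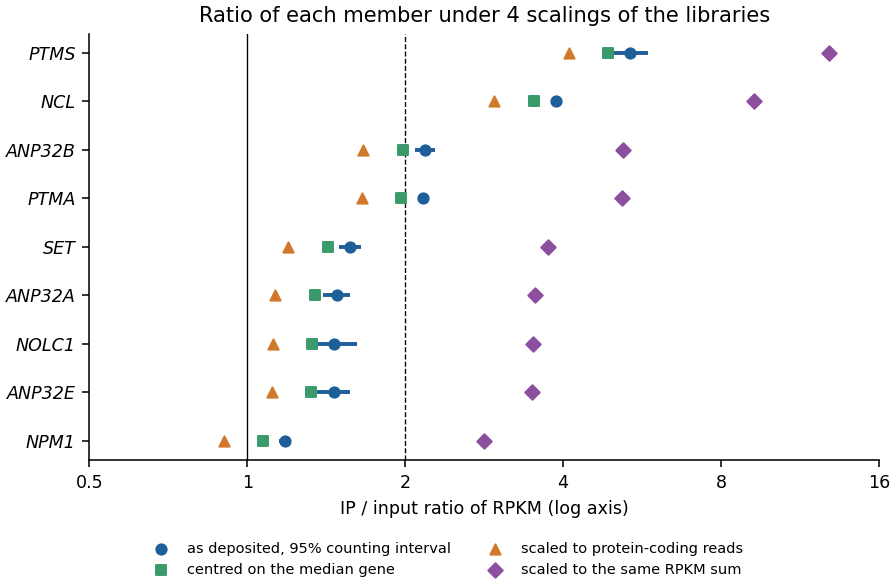
IP over input ratio of each member as deposited (circles, with exact 95% counting intervals) and under 3 other scalings, on a log axis with lines at 1 and 2. The order of the members is the same under each, and NPM1 alone falls below 1, at 0.902 with scaling to protein-coding reads.

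The deposited peak list, regions that the authors called as enriched in the IP, held 10 peaks in 5 of the members. NCL carried 4, PTMA 3, and PTMS, ANP32B and NOLC1 carried 1 each, while NPM1, SET, ANP32A and ANP32E carried 0. Of all measured genes 21.4% carried a peak, and of the 908 abundant genes, whose mean reached 50 RPKM, 24.0%. All positions, folds and p-values of peaks are the authors' own, and each peak was called from 1 IP and 1 input. No source used here names the genome build of their coordinates. Peaks and gene ratios come from the same reads, so the peaks are no independent support for the ratios.

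NCL (chromosome 2, 231453531 to 231483641, minus strand) had merged exons, the union of the exons of all listed isoforms, of 6819 bases in 16 blocks. Its peaks lay between bases 1045 and 5220 of these. The merged exons reach upstream of the RefSeq start shown above, at 231464484. If the builds are the same, the first peak begins close to that start, at 231464398. The strongest peak by fold and by p lay at 231460226 to 231463688, covered 1259 exonic bases of blocks 4 to 9 and had a fold of 3.29 with a p listed as 0. Upstream of it a peak of 151 exonic bases (fold 2.65) lay in blocks 2 and 3. Downstream, 1012 bases in blocks 10 and 11 had a fold of 2.12, and 501 bases across blocks 13 to 16 a fold of 2.44. The gap between the second and the third peak was 74 exonic bases, so these came close to a single stretch. Peaks covered 42.9% of the merged exons of NCL, more than in 86.5% of the 208 abundant genes that had a peak and more than 1 exon block, whose median was 8.00%. The last block, 1737 bases long, had 138 bases under a peak. All 4 folds of the peaks were below the deposited ratio of the whole gene, 3.87. The highest peak fold was below the gene's ratio in 13.8% of the 218 abundant genes with a peak, PTMS included. How the peak caller scaled the libraries is not known, so folds and ratios may be on unlike scales. With scaling to protein-coding reads the ratio of NCL was 2.95, below its highest peak fold.

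PTMS (chromosome 12, 6765516 to 6770952, plus strand) was covered by a single broad peak. The peak lay at 6766487 to 6770588 and took in 876 of the 1487 bases of merged exons, in 6 of 7 blocks. Its fold of 4.47 was the highest of the 10 and above that of 84.9% of all 7643 deposited peaks, among which its p ranked 14 from the smallest. Like the folds of NCL, it was below the ratio of the whole gene, 5.36. It began at base 248 of the merged exons and ended 364 bases before the 3′ end. The 58.9% under the peak exceeded that of 94.2% of the 208 genes.

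PTMA (chromosome 2, 231706895 to 231713541, plus strand) had 3 separate peaks in 3378 bases of merged exons. The first, at 231708627 to 231709856, covered 201 exonic bases with the highest fold of the 3, 2.62, and a p of rank 8. A short peak of 51 bases at 231710206 to 231710256 followed, with a fold of 2.17 and a p of rank 2136. The third, at 231711944 to 231712865, covered 335 exonic bases in blocks 6 to 8 with a fold of 2.12, and its p was listed as 0, the smallest of PTMA. A stretch of 1108 exonic bases between the second and the third had no peak. The table has 2 short entries wholly inside the exons of PTMA. MIR1244-1, of 85 bases, had 20 IP and 7 input reads and AC073476.3, of 123 bases, 6 and 0, few beside the reads of PTMA. The mature miRNA of that locus is shown for its place in the exons of PTMA (RefSeq, GRCh38.p14, chr2:231713368-231713393, plus strand), with the seed, bases 2 to 8, in capitals.
hsa-miR-1244: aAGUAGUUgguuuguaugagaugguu
MIR1244-4, on chromosome 12, has the same mature sequence and had 0 IP and 2 input reads. Reads of these libraries at MIR1244-1 cannot be told apart from reads of the PTMA mRNA.

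ANP32B and NOLC1 each had a short peak near the middle. That of ANP32B lay at chromosome 9, 98005021 to 98005071, a stretch of 51 bases within block 6 of 9 with a fold of 2.25 and a p of rank 34. Its centre lay at 46.4% of the merged exons from the 5′ end. That of NOLC1 lay at chromosome 10, 102161596 to 102161866, with 101 exonic bases in blocks 11 and 12 of 13, a fold of 2.22, a p of rank 1105 and its centre at 52.9%. NOLC1 thus had a peak at a gene ratio (1.47) close to those of ANP32A (1.48) and ANP32E (1.46), which had 0.

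**Figure D4:**
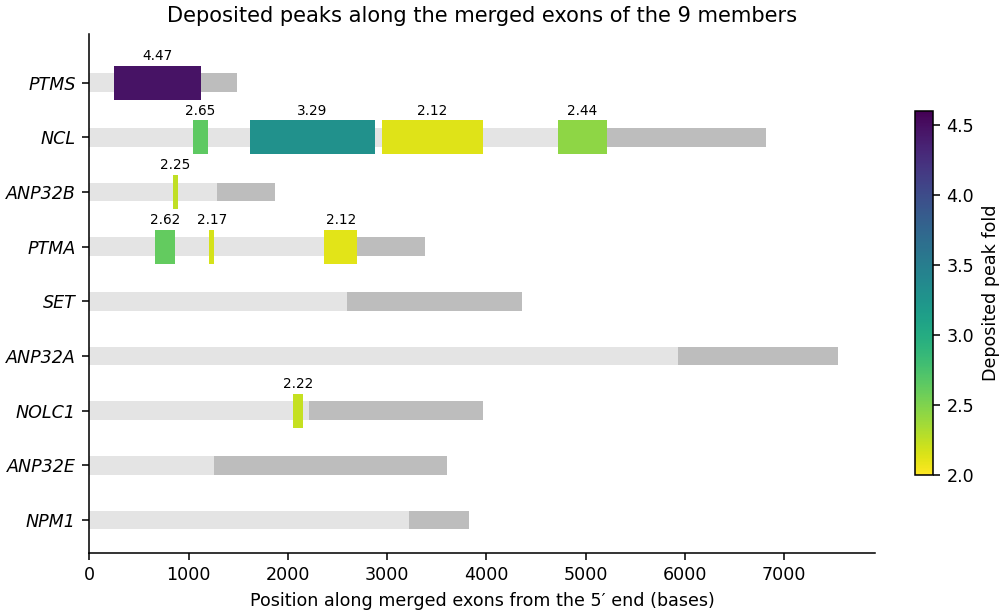
Deposited peaks (coloured by the authors' fold, printed above each) along the merged exons of each member, in bases from the 5′ end; the darker grey end of each bar is the 3′-most exon block. The peaks of NCL, PTMS and PTMA reach the start of the last block, the far 3′ end is free of peaks in all 9, and SET, ANP32A, ANP32E and NPM1 carry 0 peaks.

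Along the transcripts the peaks sat away from the 3′ end. In the 5 members with a peak, 6.27% of the first 20% of the merged exons was under a peak, 46.8%, 46.0% and 30.4% of the next 3 parts of this size, and 0% of the last 20%. Over the 208 abundant genes with a peak, the last 20% had 14.6% under peaks and the first 17.2%. Of these genes, 58.2% also had 0 peak bases in the last 20%. Of the 3′-most blocks of the 5 members, 7.38% was under a peak, against 34.1% of their other blocks. In the 208 genes these values were 9.12% and 23.6%. Which of these bases are coding was not determined here, since merged exons join all isoforms. For the same reason, the first 20% of merged exons is not the first 20% of a given isoform. In NCL and PTMA the merged exons reach upstream of the RefSeq starts shown above. If the builds are the same, their first peaks begin close to those starts, so the 6.27% does not describe the 5′ end of these isoforms.

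Among the 908 abundant genes, the share with a peak differed by the ratio of the gene. These genes share a minimum level and were not matched by level. Peaks have folds of at least 2 and come from the same reads as the ratios. A share that goes with the ratio is therefore built in, at least in part, and is no separate result. Of abundant genes with a ratio of 1 to 1.25, where NPM1 lies, 9.49% had a peak (exact binomial interval 5.15 to 15.7%, 137 genes). At 1.25 to 1.5, where ANP32A, ANP32E and NOLC1 lie, 15.7% of 134 genes had one. SET fell in the bin of 1.5 to 2, in which 50% of 140 genes had a peak and SET had 0. At 2 to 3, with PTMA and ANP32B, 80.0% of 100 genes had one, and at 3 or more, with NCL and PTMS, 75.9% of 29. With 4 peaks, NCL was among the 67 of 908 genes (7.38%) that had 4 or more.

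**Figure D5:**
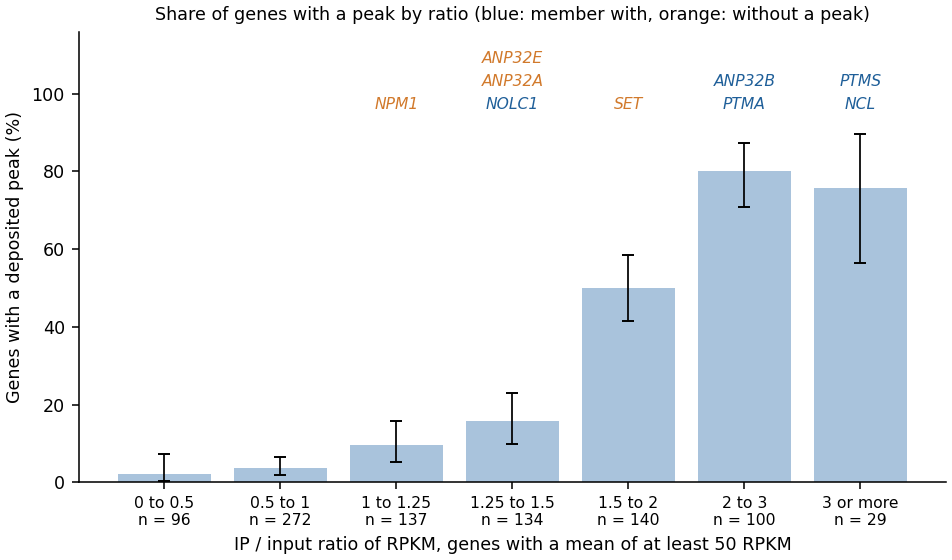
Percent of genes with a deposited peak in 7 bins of IP over input ratio, for the 908 abundant genes; bars carry exact 95% binomial intervals and names mark where the members fall. The share goes from 2.08% below a ratio of 0.5 to 80.0% at 2 to 3, and the members with a peak are NOLC1, PTMA, ANP32B, NCL and PTMS. Peaks and ratios come from the same reads.

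Processed copies of the members, intronless pseudogenes that resemble the mRNAs, took few reads. The table listed 49 of them, with 2334 IP and 476 input reads in all, equal to 1.31% and 1.33% of the reads of the 9 members. Copies of NPM1 were the most numerous (27), and copies of PTMA held the most reads, 1522 in the IP and 221 in the input. PTMAP2 had a ratio of 4.18 (3.33 to 5.31), PTMAP12 stood at 4.35 times (2.499 to 8.17) and PTMAP5 at 2.42 times (1.97 to 3.01), beside 2.16 for PTMA. NPM1P27, with 508 IP and 179 input reads, was at 1.34 times (1.13 to 1.60), beside 1.18 for NPM1. NPM1P39 was at 4.01 times (1.92 to 9.66) on 68 and 8 reads, and SETP14 at 3.07 times (1.66 to 6.19) on 78 and 12 reads. None of these 6 carried a peak. No source used here says how reads that match both a gene and its copy were assigned, so values of the copies are uncertain. Intervals of the copies were not repeated with reads halved, and are too narrow if both mates of each pair were counted.

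Other genes of the same pathways were read from lists, with 2-fold counted on the log2(RPKM + 1) scale. Of all measured genes 11.3% were at least 2-fold higher, 8.25% lower and 21.4% with a peak, at a median of 0.14. Of 38 nucleolar ribosome biogenesis factors, all 38 were measured, 8 were at least 2-fold higher and 0 lower, and 17 carried a peak, with a median log2 ratio of 0.57 (0.23 when scaled to protein-coding reads). The highest were RRP9, a U3 small nucleolar ribonucleoprotein component, at 3.60 times (2.45 to 5.46), and TCOF1, the treacle protein of ribosomal RNA transcription, at 3.35 times (3.04 to 3.71) with 9 peaks. The lowest were NIFK, a nucleolar partner of MKI67, at 0.488 times (0.395 to 0.603), which the added pseudocount brings to -0.98 on the log2 scale, and SNU13 at 0.632 times (0.486 to 0.824). Of 29 measured histone chaperones and acidic chromatin proteins, 7 were at least 2-fold higher and 1 lower, and 13 carried a peak, with a median of 0.33 that turned to -0.053 when scaled to protein-coding reads. TSPYL2, a NAP-like relative of SET, was at 3.47 times (2.74 to 4.46) and CHAF1A, the large subunit of the replication-coupled chaperone CAF-1, at 2.91 times (2.62 to 3.23). HMGB1, whose protein ends in an acidic tail, was at 0.612 times (0.576 to 0.651) and the histone chaperone ASF1A at 0.315 times (0.223 to 0.441). Of 19 measured partners of the members, such as casein kinase and phosphatase subunits, 1 was at least 2-fold higher and 0 lower, and 7 carried a peak, with a median of 0.06 that turned to -0.31 under that scaling. TOP1, DNA topoisomerase, was at 2.31 times (2.17 to 2.46) and PARP1 at 1.95 times (1.82 to 2.09), while the export receptor XPO1 was at 0.522 times (0.456 to 0.598) and PPP2CB at 0.590 times (0.447 to 0.779). Members of each list thus lay on both sides of their input level.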

How the data were processed

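The submitters' processing notes list Trimmomatic for trimming and STAR 2.5.3a for alignment. No source used here gives the gene counter, annotation or peak caller, or says whether counting used the molecular tags of 8 random bases in the design text. The deposited gene values are RPKM: the header names no unit, but values times lengths have equal totals in the 2 columns. All values were whole multiples of 1 read within 0.01, which gave the reads. The deposited peak table gives a fold (ratio) and a p-value and false discovery rate per peak, per the file headers, with folds of at least 2.

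The log2 ratio used a pseudocount of 1 and genes whose mean reached 1 RPKM; ratios of single genes used none. Intervals came from Clopper-Pearson bounds, and those between members from the conditional odds ratio. No test was possible with 1 library per group. A peak was assigned to the gene with the most exonic overlap (at least 1 base) on its strand. RNA class came from RefSeq symbols (GRCh38.p14), which covered 19804 genes and left 5752 without a class. The members and lists were chosen with earlier results of these data known. Named were all members, the 2 highest and 2 lowest of each list, copies with at least 50 reads, and each member's peak of highest fold and smallest p. HBB, COL1A1, NPM2, NPM3, ANP32C and ANP32D were named outside this rule, after values were seen; the limit of 50 RPKM, the ratio bins and the 5′ ends were chosen after values were seen. The functions were tested on simulated data. The table had 0 columns of other samples. The 5′ end of 1 member is not reported here. A planned comparison of proteins by acidic stretches was not run. Software was scipy 1.17.1, numpy 2.4.6, matplotlib 3.10.9 and pandas 2.3.3 on Python 3.11.15.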

Additional observations from a re-analysis of the deposited data

How the results depend on the processing

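The count of members at least 2-fold higher was 4 as deposited and with a pseudocount of 0.1 or 5, a minimum mean of 5 RPKM or no filter. It was 2 after centring on the median gene, 2 when scaled to protein-coding reads and 9 when scaled to equal RPKM sums; the members' median log2 ratio was then 0.51, 0.26 and 1.90. With scaling to protein-coding reads NPM1 turned to 0.902 times its input level. All 10 peaks of the members had a false discovery rate of at most 0.05 and most of their exonic bases in the member. At a fold of at least 3, 2 peaks remained, and the percent of the merged exons of all 9 under peaks went from 12.3% to 5.79%. Scaled to protein-coding reads and to equal RPKM sums, list medians of the log2 ratio were -0.053 and 1.57 for histone chaperones, 0.23 and 1.80 for nucleolar factors, -0.31 and 1.13 for partners and -0.37 and 1.28 for hepatocyte markers; for markers of other cells it turned from -0.48 to 0.56 with the second. These changes follow from the factor put on the IP. With 1 library per group, depth limits counting error only, and the spread between preparations is unknown. No paired analysis was possible because each group has 1 library. The planned settings for acidic stretches of proteins were not run.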

Other observations

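Genes whose RefSeq start opens with C and at least 4 further C or T, the kind of start shown for ANP32B, NPM1 and PTMA, were set beside genes with other starts, with no test of the difference. Of 625 such measured genes, 5.6% were at least 2-fold lower and 7.2% at least 2-fold higher, with a median log2 ratio of 0.10. Of 7796 with other starts, 3.81% were lower and 8.11% higher, with a median of 0.17. The shares lay further apart among abundant genes, a subset chosen after values were seen. Of 82 genes with such a start whose mean reached 50 RPKM, 12 (14.6%) were at least 2-fold lower and 11 (13.4%) at least 2-fold higher, and their median log2 ratio was 0.07. Of 465 abundant genes with other starts, 18 (3.87%) were lower and 81 (17.4%) higher, with a median of 0.35. These values were looked at after the 5′ ends of the members had been seen, over the 547 abundant genes that the RefSeq table holds, and have no replicate check.

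The small nucleolar RNA symbol SNORA75 pools 5 stretches on 3 chromosomes in the deposited table, of which 137 bases lie within the span of NCL. Its 18 IP and 4 input reads were therefore not assigned to NCL.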
